A study of Mus musculus with 8 samples.

Results

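The 10 genes described here are Ccnd1, Ccnd2, Ccna2, Ccnb1, Cdk1, Mki67, Top2a, Bub1, Aurkb and Hjurp, which act in the cell cycle of dividing cells. The list was chosen by their CPM over the 8 libraries in earlier results of these data, so their own changes over time are given as a description, with no p-value. How many passed the threshold of the fit over all genes is given as a count, from which nothing is read. All 10 were among the 24421 genes of the deposited count table, and all 10 were among the 17328 genes that passed the filter on low counts and were tested.

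The libraries came from the L3 to L5 dorsal root ganglia (DRG) on the left side of wild-type (WT) C57BL/6J mice. The sample records give an age of 8 weeks, the lower end of the range of ages in the paper's methods. Injected mice received 20 µL of 1% carrageenan, a seaweed polysaccharide that causes local inflammation, in the left hind paw. They were taken 1, 3 or 30 days afterwards (1d, 3d and 30d). The 0d libraries came from mice that received no injection, so an effect of the injection itself and one of carrageenan cannot be told apart, nor can age and time since injection at 30d. Each time point had 2 libraries, each from the pooled ganglia of 2 to 3 mice, and all mice were perfused with an RNA preservative before dissection. The labels name DRG neurons, but whole ganglia were dissected. The 9 neuron markers summed to 17222 to 18378 CPM (counts per 1000000 of the scaled library total), and the 10 markers of satellite glia and Schwann cells, the glia of the ganglion, to 8256 to 13977 CPM. Libraries held 44123208 to 73580338 counted fragments.

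A cell that enters division first makes D-type cyclins, which partner the kinases Cdk4 and Cdk6 and release the E2F transcription factors from the retinoblastoma protein. E2F factors, and later the B-Myb and FoxM1 proteins, switch on genes for DNA replication and mitosis, so that Ccna2, Ccnb1, Cdk1, Mki67, Top2a, Bub1 and Aurkb are transcribed together in cycling cells and repressed in resting ones by the DREAM complex. Sensory neurons do not divide in the adult, while glia, endothelial cells, macrophages and blood precursors can. D-type cyclins are also made in cells that do not divide. In bulk RNA, fewer cells of a type and less RNA per cell cannot be told apart.

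The promoters of the mitotic genes are shown because most of these genes had their highest and lowest levels in the same libraries. In such genes the DREAM complex and B-Myb with FoxM1 act through a short element called CHR, whose core reads TTTGAA, and NF-Y binds the CCAAT box. RefSeq promoter sequences on GRCm38.p6, the assembly behind the mm10 build of the counts, were matched for 6 of the 10 genes, Cdk1, Top2a, Mki67, Ccnb1, Bub1 and Hjurp. The last 150 bases before the start of the gene follow for 5 of them, 5′ to 3′ on the minus strand, from chr10:69352913-69353062 for Cdk1, chr11:99024190-99024339 for Top2a, chr7:135716380-135716529 for Mki67, chr13:100786487-100786636 for Ccnb1 and chr2:127831860-127832009 for Bub1. Capitals mark TTTGAA or CCAAT on either strand. The letters of the 2 motifs do not overlap in these windows.
Cdk1: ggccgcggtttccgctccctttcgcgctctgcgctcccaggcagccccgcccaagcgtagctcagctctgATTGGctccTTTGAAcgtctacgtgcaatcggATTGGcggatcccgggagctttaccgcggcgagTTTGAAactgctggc
Top2a: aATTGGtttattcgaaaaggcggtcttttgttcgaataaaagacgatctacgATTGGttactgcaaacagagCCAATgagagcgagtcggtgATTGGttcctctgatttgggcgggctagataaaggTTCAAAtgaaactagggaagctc
Mki67: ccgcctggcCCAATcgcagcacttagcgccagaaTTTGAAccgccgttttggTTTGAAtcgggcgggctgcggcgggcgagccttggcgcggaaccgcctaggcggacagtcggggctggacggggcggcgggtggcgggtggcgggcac
Ccnb1: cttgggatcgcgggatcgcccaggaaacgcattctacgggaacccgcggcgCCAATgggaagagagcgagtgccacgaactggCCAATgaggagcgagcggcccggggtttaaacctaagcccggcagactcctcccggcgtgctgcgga
Bub1: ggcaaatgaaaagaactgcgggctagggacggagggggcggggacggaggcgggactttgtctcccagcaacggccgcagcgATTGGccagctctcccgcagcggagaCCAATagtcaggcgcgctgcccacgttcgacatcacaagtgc
In the 250 bases before the start, Cdk1, Top2a and Mki67 each held 2 TTTGAA cores and the other 3 genes held none. CCAAT was found 6 times in Top2a, 3 times in Cdk1 and in Mki67, 2 times in Ccnb1 and in Bub1, and 1 time in Hjurp. Of all 32851 promoters in the RefSeq table, 16.0% held TTTGAA and 33.8% held CCAAT in the same window. These are matches of letters and say nothing of whether a factor was bound.

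The 10 genes fell into 3 ranges of level. Per exonic length, as CPM per kilobase of exon (RPKM), Ccnd1 (13.8 ± 1.23, SD over the 8 libraries) and Hjurp (12.7 ± 1.26) were the highest, although most fragments counted for Hjurp also lay in exons of other genes, as described further on. Ccna2 (2.95 ± 0.493) and Ccnd2 (2.45 ± 0.328) formed a middle range. The remaining 6 genes were low, with mean RPKM of 0.742 for Mki67, 0.679 for Top2a, 0.403 for Cdk1, 0.370 for Aurkb, 0.284 for Ccnb1 and 0.266 for Bub1. Of neighbours in this order, Hjurp and Ccna2, and Ccnd2 and Mki67, were separated in 8 of 8 libraries and their ranges did not overlap. The ranges of all other neighbours overlapped, so that the order of these neighbours is not resolved, although genes further apart could be separated, such as Mki67, whose lowest RPKM of 0.428 was above the highest of Bub1 (0.396). Among the 17328 tested genes, Ccnd1 stood at percentile 68.6 of RPKM and Bub1 at percentile 10.1.

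**Figure D1:**
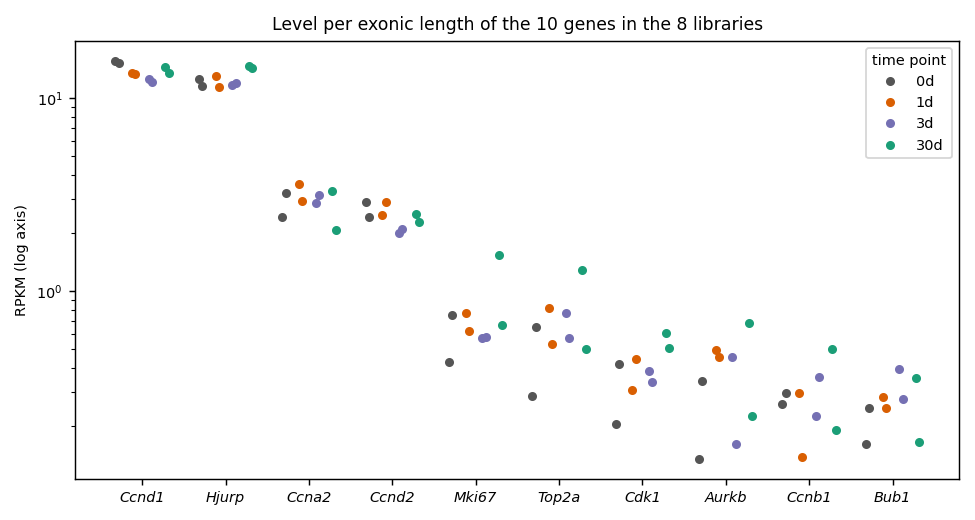
RPKM (log axis) of each of the 10 genes in the 8 libraries, coloured by time point and ordered by mean. Ccnd1 and Hjurp lie above 11 in every library, Ccna2 and Ccnd2 between 2.00 and 3.61, and the other 6 genes lie below, with the widest spread.

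Ccnd1, which encodes cyclin D1, fell after the injection and was lowest at 3d. The gene lies on the minus strand at chr7:144929931-144939925 (mm10). Its CPM was 59.6 and 57.9 for 0d, 51.6 and 50.6 for 1d, 48.0 and 46.0 for 3d, and 54.9 and 51.6 for 30d. Both 0d libraries were above the other 6, and both 3d libraries were below the other 6. The mean fell from 58.7 ± 1.19 (SD, n = 2) at 0d to 47.0 ± 1.43 at 3d, a log2 fold change (log2FC) of -0.32 ± 0.06 (SE). The log2FC against 0d was -0.20 ± 0.06 at 1d and -0.14 ± 0.06 at 30d, and 30d stood 0.18 ± 0.06 above 3d. Across the 8 libraries the highest level was 1.30 times the lowest, and replicates were at most 1.06 times apart.

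Ccnd2, which encodes cyclin D2, was also lowest at 3d, though its replicates were further apart. The gene lies on the minus strand at chr6:127125709-127151048. Its CPM was 16.7 and 13.96 for 0d, 14.4 and 16.7 for 1d, 11.5 and 12.2 for 3d, and 14.5 and 13.2 for 30d. Both 3d libraries were below the other 6, while 0d, 1d and 30d overlapped. The mean was 15.3 ± 1.96 (SD, n = 2) at 0d and 11.9 ± 0.456 at 3d. The log2FC of 3d was -0.37 ± 0.12 (SE) against 0d and -0.39 ± 0.12 against 1d. Without the first 0d library the log2FC of 3d against 0d became -0.23.

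**Figure D2:**
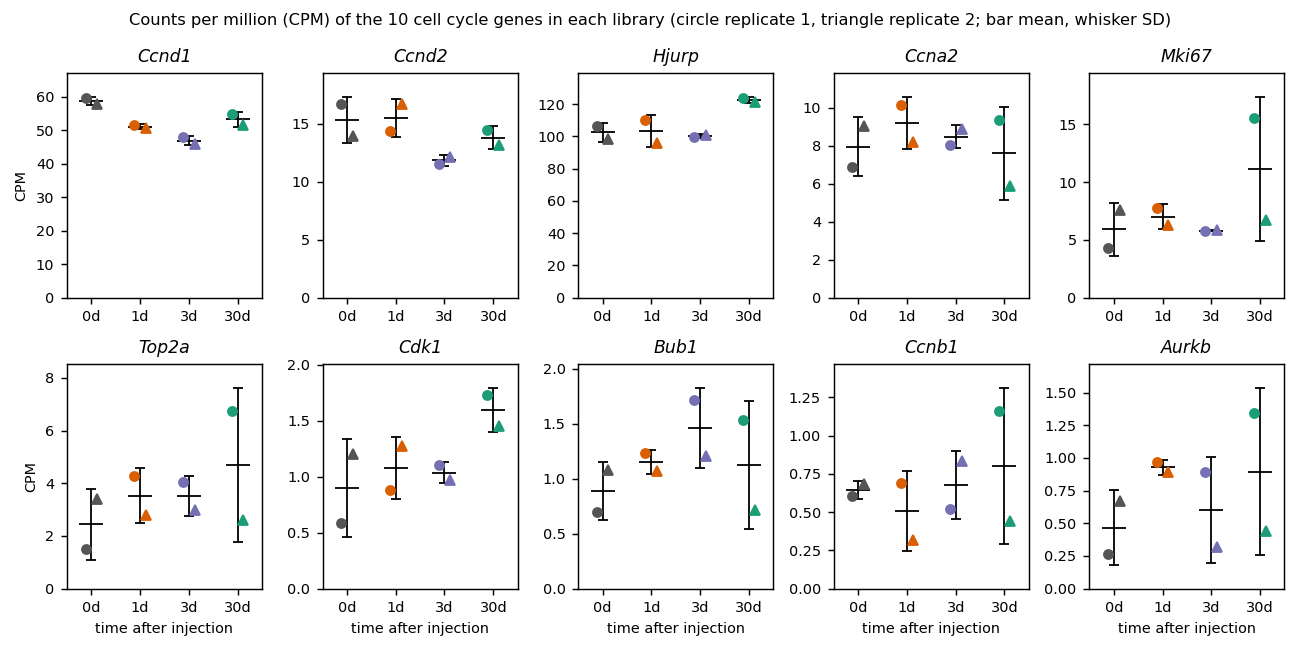
CPM of the 10 genes by time point. Circles are replicate 1, triangles replicate 2, horizontal bars means and whiskers SD (n = 2); each panel has its own axis from 0. Ccnd1 and Ccnd2 are lowest at 3d, while in Ccna2, Mki67, Top2a, Bub1, Ccnb1 and Aurkb the first 30d library stands far above the second.

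The 2 libraries of a time point often lay far apart for the S phase and mitosis genes. All time points overlapped for Top2a, Ccna2 and Ccnb1, while Mki67, Cdk1, Bub1, Aurkb and Hjurp had time points that were separated. Mki67 (chr7:135689788-135716379, minus strand) encodes the Ki-67 protein, which coats mitotic chromosomes and marks cycling cells. Its CPM was 4.31 and 7.55 for 0d, 7.77 and 6.27 for 1d, 5.75 and 5.85 for 3d, and 15.5 and 6.76 for 30d. The first 30d library was 2.30 times the second, and the first 0d library was the lowest of all. Both 3d libraries were below both 1d and both 30d libraries, while 0d overlapped with each of the others. The mean of 11.1 ± 6.19 (SD, n = 2) at 30d against 5.93 ± 2.29 at 0d gave a log2FC of 0.90 ± 0.47 (SE), which became 0.18 without the first 30d library.

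Top2a (chr11:98992947-99024189, minus strand) encodes topoisomerase II alpha, which untangles DNA before chromosomes separate. Its CPM was 1.49 and 3.39 for 0d, 4.27 and 2.78 for 1d, 4.05 and 2.97 for 3d, and 6.75 and 2.61 for 30d. The extremes were the same libraries as for Mki67, 0d replicate 1 and 30d replicate 1, and the time points overlapped between them. The log2FC of 30d against 0d was 0.92 ± 0.59 (SE). It became 0.08 without the first 30d library, and -0.38 when the first library of both time points was left out.

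Cdk1 (chr10:69336635-69352912, minus strand) encodes the kinase that drives entry into mitosis. Its CPM was 0.586 and 1.21 for 0d, 0.885 and 1.28 for 1d, 1.10 and 0.971 for 3d, and 1.73 and 1.46 for 30d. Here both 30d libraries were above the other 6. The mean was 0.896 ± 0.439 (SD, n = 2) at 0d and 1.60 ± 0.197 at 30d. The log2FC was 0.82 ± 0.40 (SE), from 31 to 103 fragments a library. It was 0.40 without the first 0d library, 1.44 without the second, and 0.27 without the first library of both 0d and 30d.

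Ccna2 (chr3:36564865-36571996, minus strand) encodes cyclin A2, the partner of Cdk2 and Cdk1 in S and G2 phase. Its CPM was 6.86 and 9.03 for 0d, 10.1 and 8.21 for 1d, 8.05 and 8.89 for 3d, and 9.33 and 5.86 for 30d. The 2 libraries of 30d lay near the top and at the bottom of the range, and no 2 time points were separated. Ccna2 shares 378 of its 2811 exonic bases with Exosc9, an exosome subunit gene on the opposite strand, measured at 21.6 to 26.0 CPM. Each fragment on those bases was counted for both genes, and Exosc9 spread evenly over its length would put 5.06 to 6.08 CPM there, beside a Ccna2 level of 5.86 to 10.1 CPM; the share of Exosc9 in the Ccna2 counts was not tested.

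Ccnb1 (chr13:100778739-100786486, minus strand), Bub1 (chr2:127800200-127831859, minus strand) and Aurkb (chr11:69045643-69051662, plus strand) were low as well, with 14 to 112 fragments a library. Ccnb1 encodes cyclin B1, the partner of Cdk1. Its CPM was 0.605 and 0.685 for 0d, 0.690 and 0.319 for 1d, 0.521 and 0.834 for 3d, and 1.16 and 0.443 for 30d, with overlap of all time points. Of the 50-base words of its longest transcript, 42.1% also occur in transcripts of other genes, mostly the pseudogene Ccnb1-ps, and multi-mapping pairs were left out of the counts, so its level is uncertain.

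Bub1 encodes a kinase of the spindle checkpoint. Its CPM was 0.699 and 1.08 for 0d, 1.23 and 1.07 for 1d, 1.72 and 1.20 for 3d, and 1.53 and 0.714 for 30d. Both 3d libraries were above both 0d libraries, with a log2FC of 0.71 ± 0.42 (SE) that became 0.44 without the first 3d library. Aurkb encodes Aurora B, the kinase that corrects the attachment of chromosomes to the spindle. Its CPM was 0.265 and 0.668 for 0d, 0.971 and 0.889 for 1d, 0.889 and 0.315 for 3d, and 1.35 and 0.443 for 30d. Both 1d libraries were above both 0d libraries, with a log2FC of 0.98 ± 0.67 (SE). It became 0.48 without the first 0d library and 1.81 without the second. For these genes counting error alone was wide. The 14 fragments of Aurkb in the first 0d library gave an exact 95% Poisson interval of 0.145 to 0.444 CPM, which covers counting error only.

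At 0d and 30d these 7 genes (Mki67, Top2a, Ccnb1, Ccna2, Cdk1, Bub1 and Aurkb) differed between replicates in the same direction. Their summed CPM was 14.8 and 23.6 for 0d, 26.0 and 20.8 for 1d, 22.1 and 21.0 for 3d, and 37.4 and 18.3 for 30d. The first 30d library was the highest of 8 for 5 of the 7 genes, against 15.4% of all tested genes. The first 0d library was the lowest for 5 of the 7, against 10.4% of all tested genes. At 30d the first replicate was higher for 7 of 7 genes, and at 0d it was lower for 7 of 7. At 1d it was higher for 6 of 7, and at 3d for 4 of 7, where the sums were 1.05 times apart. Pearson correlations of log2 CPM between these genes are given as a description over 8 libraries that differ in depth and cell content. They were above 0 for 21 of 21 pairs, with a median of 0.59 and a range from 0.07 to 0.87 (Mki67 with Top2a). Spearman's rho was above 0 for 19 of the 21 pairs, with a median of 0.57. Without the first 0d and the first 30d library, a choice made after the data were seen, Pearson's r was above 0 for 13 of 21 pairs, with a median of 0.27 and a range from -0.84 to 0.75. Ccnd1 and Ccnd2 did not follow the 7 genes over the 8 libraries, at -0.47 to 0.16 over 14 pairs.

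Most bone marrow, neutrophil and erythroid markers had extremes in the same 2 libraries. The summed CPM of 11 bone marrow and neutrophil precursor markers, among them Mpo, Elane and S100a8, was 52.7 and 113.0 for 0d, 130.6 and 136.5 for 1d, 173.8 and 170.9 for 3d, and 272.1 and 113.0 for 30d. Of these 11 genes, 8 were highest in the first 30d library and 10 were lowest in the first 0d library. Prtn3 and Ctsg were highest in the second 1d and Mmp8 in the first 3d library, and Ctsg was lowest in the second 30d library. Of 13 erythroid markers, 3 pairs of globin genes (Hbb-b1 and Hbb-bs, Hbb-b2 and Hbb-bt, Hba-a1 and Hba-a2) had the same count in every library, so each pair was used as 1 gene. Of the 10 that remained, 10 were highest in the first 30d library and 6 were lowest in the first 0d library, and their sum ranged from 104.7 to 403.8 CPM between those libraries. None of these marrow and erythroid markers was at 0 in any library. Over the 8 libraries Pearson's r with the sum of the 7 genes, on the log2 scale, was 0.84 for the marrow and 0.85 for the erythroid markers, and 0.05 and 0.08 without those 2 libraries. The order of replicates was that of the 7 genes at 3 of 4 time points for the marrow and at 2 of 4 for the erythroid markers, and Spearman's rho was 0.55 and 0.52. The part of cells with these markers in the levels of the 7 genes was not tested.

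The sum of 9 lymphocyte markers also followed the 7 genes, though its members differed among themselves. It ranged from 9.80 to 18.1 CPM, was highest in the first 30d library, and had the same order of replicates as the 7 genes at 4 of 4 time points. Ptprc, which all leukocytes express, made up much of it at 4.37 to 10.1 CPM. Of the 9 genes, 4 were highest in the first 30d library and 3 were lowest in the first 0d library, while Cd79b was highest in the second 0d, Cd4 in the first 0d, Cd8a in the first 3d, and Cd3e and Cd3g in the second 30d library. The r of the sum with that of the 7 genes was 0.92, and 0.71 without the first libraries of 1d and 30d, the 2 farthest from the median. Without Ptprc, a choice made after the data were seen, the sum of the other 8 was 4.06 to 7.97 CPM and r was 0.84. Cd8a was at 0 in at least 1 library. The remaining lists showed other patterns. Neuron markers (9) were lowest in the first 30d library at 17222 CPM and highest in the first 3d library, at 1.07 times that level. The r of their sum with that of the 7 genes was -0.74, and -0.54 without those 2 libraries. Macrophage markers (10 genes) kept to 114.9 to 136.7 CPM, endothelial markers (7) to 102.6 to 120.7 CPM with their maximum in the first 30d library, and the satellite glia and Schwann cell markers went the opposite way, highest in the first 0d library and lowest in the first 30d library. Fibroblast markers (6) were highest in the first 0d library at 1917 CPM against 1288 to 1410 in the rest, and 9 skeletal muscle markers ranged from 23.9 to 150.3 CPM with their maximum in the same library.

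**Figure D3:**
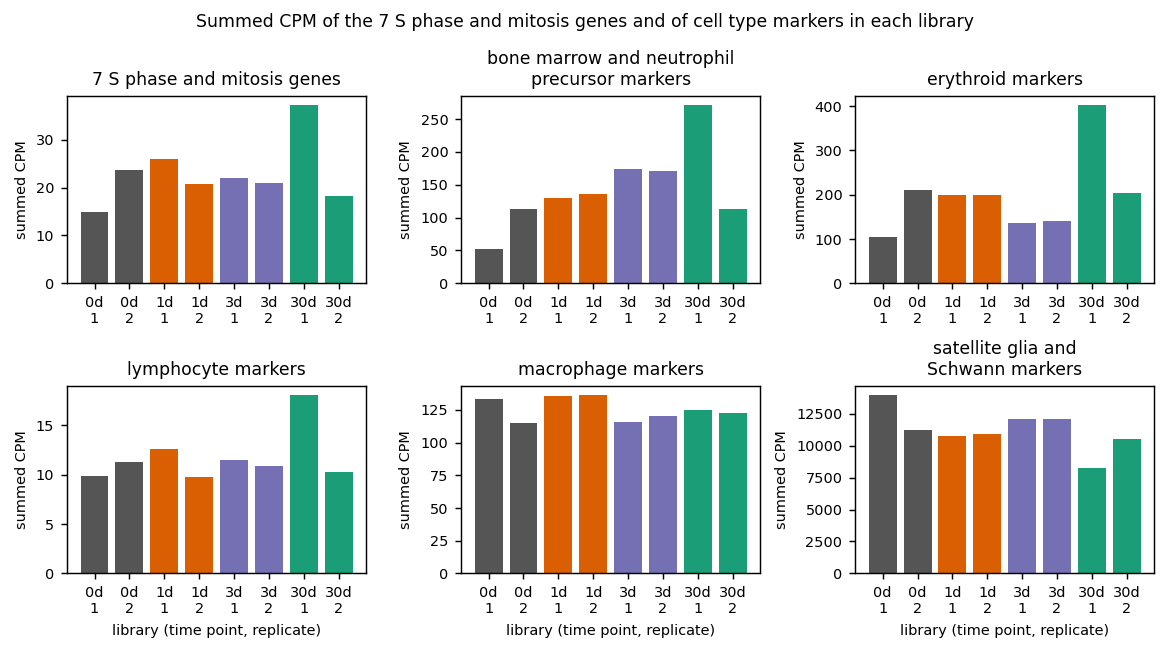
Summed CPM of the 7 S phase and mitosis genes and of 5 marker lists in each library, each panel with its own axis from 0. The first 30d library is highest for the S phase and mitosis, marrow, erythroid and lymphocyte panels and lowest for the glial panel.

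Hjurp encodes the chaperone that deposits the centromeric histone Cenpa, and its counts cannot be read as those of the chaperone alone. The row spans chr1:88258856-88277579 on the minus strand with 8439 exonic bases, of which 6572 also belong to other annotated genes. The 3638 bases of the transcript 6430706D22Rik lie wholly inside Hjurp exons, and its counts were 85.5% to 88.9% of those of Hjurp in the 8 libraries, although it covers 43.1% of the length. The transcript A730008H23Rik shares 2215 bases, and Mroh2a on the opposite strand shares 2554. The CPM of the Hjurp row was 106.7 and 98.3 for 0d, 110.2 and 96.1 for 1d, 99.5 and 101.0 for 3d, and 123.8 and 121.5 for 30d.

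Both 30d libraries of the Hjurp row were above the other 6. The mean was 122.6 ± 1.66 (SD, n = 2) at 30d against 100.2 ± 1.09 at 3d, a log2FC of 0.29 ± 0.06 (SE). The log2FC of 30d was 0.26 ± 0.06 against 0d and 0.25 ± 0.06 against 1d, and the latter became 0.15 without the second 1d library. For 6430706D22Rik the log2FC of 30d against 3d was 0.28 ± 0.06. After subtraction of the fragments shared with it, the Hjurp row kept 15.0 and 12.9 CPM for 0d, 14.8 and 12.3 for 1d, 11.1 and 14.7 for 3d, and 16.6 and 16.6 for 30d. The remainder at 30d was again above the other 6 libraries, the nearest of which was the first 0d library. It can still hold fragments of A730008H23Rik and Mroh2a, since 1867 of the exonic bases of Hjurp belong to no other gene. Mroh2a was itself at 4.40 and 4.68 CPM for 30d and at most 4.34 CPM elsewhere. The share of these genes in the remainder was not tested. Hjurp did not follow the 7 mitotic genes closely, with correlations from -0.24 to 0.58.

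Across the 6 comparisons between time points, few of the 10 genes passed an adjusted p of 0.05 over all tested genes. The numbers were 0 of 10 at 1d against 0d, where 0.346% of all tested genes were called, 1 of 10 (Ccnd1, lower) at 3d against 0d (0.219%), 0 of 10 at 30d against 0d (0.0231%), 0 of 10 at 3d against 1d (0.289%), 0 of 10 at 30d against 1d (0.571%) and 1 of 10 (Hjurp, higher) at 30d against 3d (0.935%). In the test over all 4 time points 0 of 10 were called, against 1.02% of all genes. Since the genes were chosen with such results in view, nothing is read from these shares. Both calls were narrow. Ccnd1 was no longer called when any 1 of the 6 libraries of 0d, 1d or 3d was left out, with a log2FC of -0.35 to -0.29 in those fits, and Hjurp was no longer called without any 1 of the 4 libraries of 3d or 30d, with a log2FC of 0.28 to 0.30.

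The libraries of the compared time points did not overlap for 2 of 10 genes at 1d against 0d (31.9% of all tested genes), 3 at 3d against 0d (39.5%), 3 at 30d against 0d (39.6%), 3 at 3d against 1d (37.6%), 3 at 30d against 1d (40%) and 5 at 30d against 3d (46.4%). The standard errors separate the members. They were 0.06 for Ccnd1 and Hjurp, 0.12 for Ccnd2 and 0.21 for Ccna2, and 0.39 to 0.67 for the other 6.

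**Figure D4:**
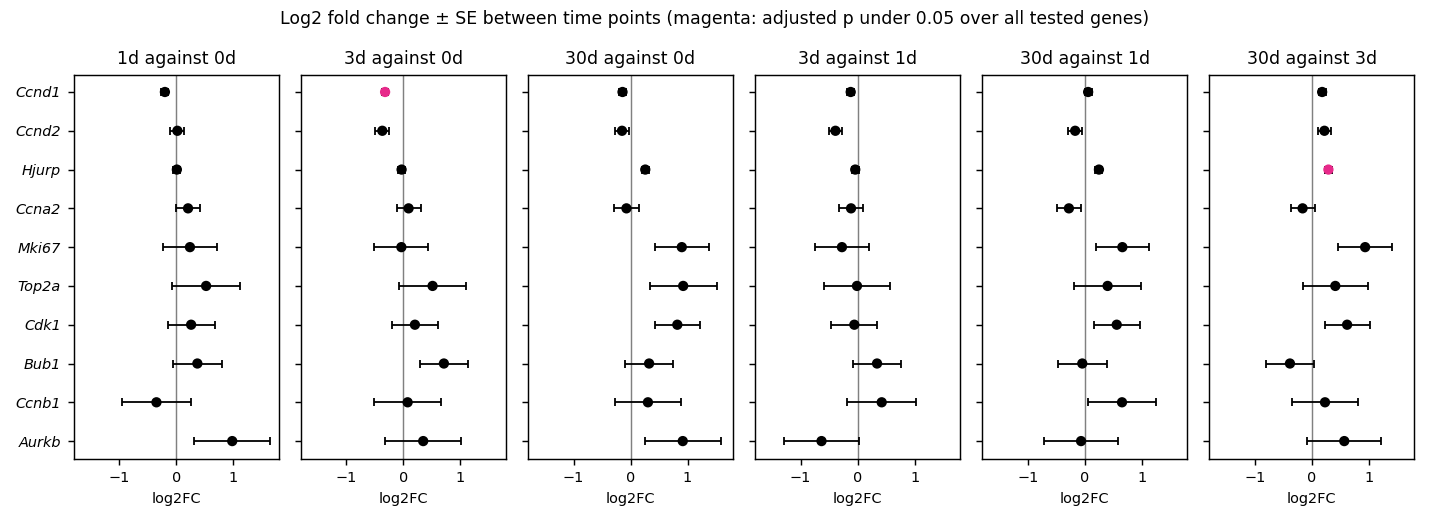
Log2FC with SE of the 10 genes in the 6 comparisons between time points. Ccnd1 at 3d against 0d (-0.32) and Hjurp at 30d against 3d (0.29), in magenta, are small changes with narrow bars, while Mki67, Top2a and Aurkb reach 0.90 to 0.98 with bars of 0.47 to 0.67.

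The 134 other cell cycle genes stood on 5 lists. With edgeR's quasi-likelihood test and Benjamini-Hochberg adjustment over all tested genes, 0 of 134 were called in each of the 6 comparisons and over time. DESeq2 called 2 of them at 30d against 3d and 1 over time, and 0 in the other 5 comparisons. At an unadjusted p under 0.05 there were 4 of 134 at 1d against 0d, 0 at 3d against 0d, 20 at 30d against 0d, 3 at 3d against 1d, 12 at 30d against 1d and 20 at 30d against 3d. The share of all tested genes at that limit was 4.47%, 5.94%, 12.3%, 4.24%, 11.7% and 13% in the same order. Leaving out 1 library of a compared time point moved each of these counts, and the share of all genes as well.

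At 30d against 0d, 107 of the 134 genes had a log2FC above 0, against 49.9% of all tested genes, with a median of 0.17 where the median of all genes was 0.00. The mitosis list had 49 of 60 above 0 and a median of 0.32, and the DNA replication list had 35 of 40 and a median of 0.17. Without the first 0d and the first 30d library these medians were 0.05 for the 134 genes, 0.08 for mitosis and 0.07 for replication. At 30d against 3d, 90 of 134 were above 0 against 50.1% of all genes, and the median was 0.14, or 0.03 without them. At 1d against 0d, 100 of 134 were above 0 against 48.8% of all genes, with a median of 0.08. That median became 0.04 without those libraries, and lay at 0.01 without the first and at 0.14 without the second 1d library. The mitosis median of the same comparison, 0.13, became -0.03 without the first 1d library. At 30d against 1d, 86 of 134 were above 0 against 50.7% of all genes, and the median was 0.07. It became -0.02 without the first 0d and the first 30d library, 0.14 without the first 1d and 0.01 without the second 1d library. At 3d against 0d 68 were above 0 against 49.2%, with a median of 0.01, which became 0.07 without the second 0d library and 0.05 without the first 3d library. At 3d against 1d most went the other way, with 49 of 134 above 0 against 50.8% of all genes and a median of -0.04, which became -0.10 without the second and 0.00 without the first 1d library. The first 30d library held the highest level of 52 of the 134 genes (38.8%), against 15.4% of all tested genes, and of 25 of 60 mitosis and 19 of 40 replication genes. The first 0d library held the lowest level of 24 of the 134 (17.9%), against 10.4% of all tested genes, and of 12 of 60 mitosis and 6 of 40 replication genes.

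**Figure D5:**
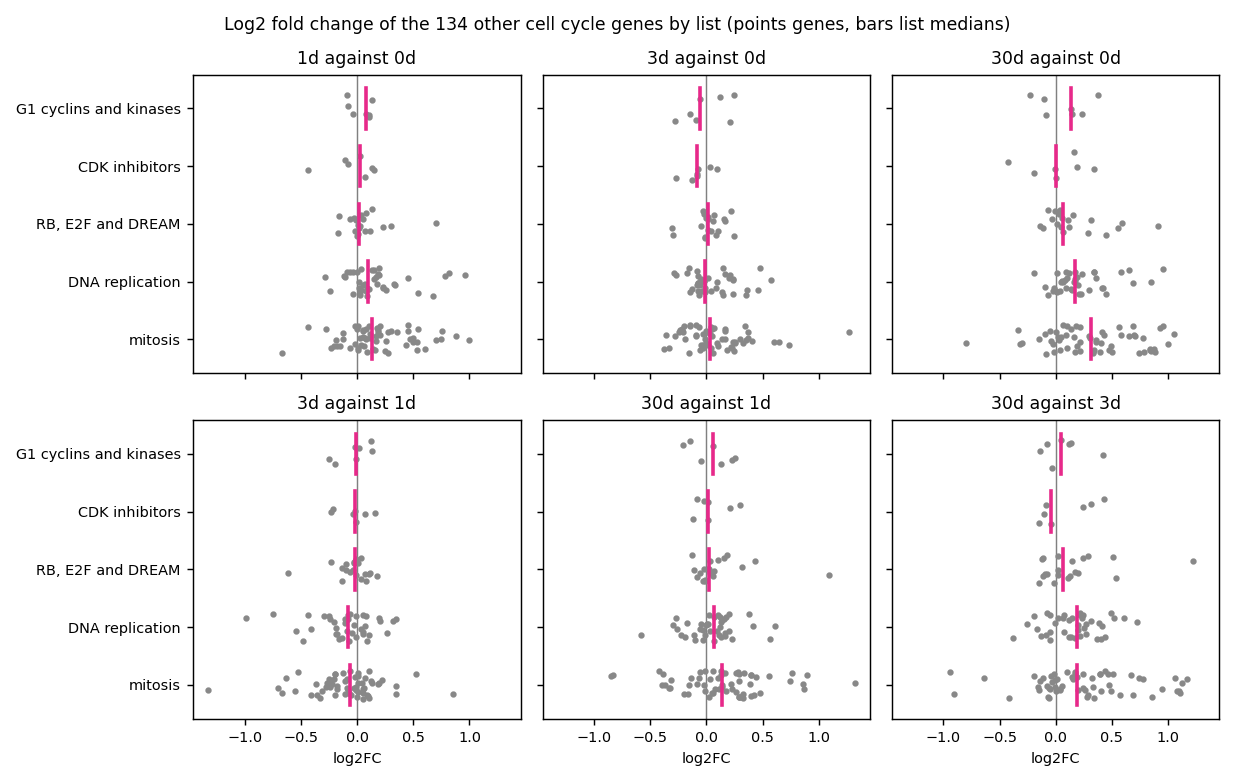
Log2FC of the 134 other cell cycle genes in the 6 comparisons, by list. Points are genes and magenta bars are list medians. At 30d against 0d and against 3d the mitosis and replication medians lie between 0.17 and 0.32, and at 3d against 0d they lie between -0.02 and 0.03.

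The kinase partners of the D cyclins went in opposite directions at 30d, and neither was called. Cdk4, the kinase bound by cyclin D, was 34.2 and 35.3 CPM for 0d and 29.5 and 29.7 CPM for 30d. Its 30d libraries were below the other 6, with a log2FC of -0.23 ± 0.07 (SE) and an adjusted p of 0.198 by edgeR's quasi-likelihood test. Cdk6, the other kinase, was at 1.93 and 1.74 CPM for 0d and 2.26 and 2.51 for 30d. Its log2FC against 0d was 0.25 ± 0.25 at 3d and 0.38 ± 0.25 at 30d, with adjusted p of 0.999 and 0.562 in the same test. Cyclin D3 (Ccnd3) was at 29.0 to 38.5 CPM, with a log2FC of 0.24 ± 0.09 at 30d against 0d that rested on the first 30d library and became 0.06 without it.

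Cyclin E1 (Ccne1), which partners Cdk2 at the start of S phase, was at 11.3 to 14.5 CPM, and Cdk2 at 3.27 to 5.17 CPM. The inhibitors were more abundant per length than the mitotic genes, with a mean RPKM of 38.2 for Cdkn1b (p27) and 35.3 for Cdkn1a (p21), and 5.28 for Cdkn1c (p57). Cdkn1a was at 60.1 to 77.8 CPM and Cdkn1b at 87.7 to 96.3 CPM, both lowest in the first 30d library. Rb1, the retinoblastoma gene, was at 41.6 to 48.1 CPM. None of these genes was called in any comparison.

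Of the regulators of mitotic transcription, Foxm1 was at 2.30 to 3.91 CPM and Mybl2, which encodes B-Myb, at 0.243 to 1.20 CPM. The replication clamp Pcna (29.5 to 33.4 CPM) had a narrow range, and that of the helicase subunit Mcm2 (7.54 to 10.2 CPM) was wider. Among mitotic partners, Ccnb2 was at 0.521 to 1.65 CPM, Cdc20, the activator of the anaphase-promoting complex, at 0.785 to 2.02 CPM, and the kinase genes Plk1 and Aurka at 1.00 to 1.94 and 4.01 to 6.20 CPM. Birc5 and Incenp, whose products form a complex with Aurora B, reached 3.79 and 12.1 CPM. Of these 10 genes, 7 (Ccnb2, Cdc20, Plk1, Birc5, Incenp, Mcm2 and Mybl2) were highest in the first 30d library, against 15.4% of all tested genes.

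For 24 of the 134 genes both 30d libraries were above the other 6, which was the case for 8.87% of all tested genes. Of the 60 mitosis genes they were 15 and of the 40 replication genes 6. Among the genes named here they were Ccnb2 (1.65 and 1.26 CPM at 30d, at most 1.17 elsewhere), Incenp (12.1 and 11.5 against at most 10.5), Rb1, Mcm7, Kif20a, Kif23, E2f8 and Cenpa. Kif23, a kinesin of the central spindle, was at 3.61 and 3.28 CPM for 0d, 4.12 and 2.80 for 1d, 3.42 and 3.54 for 3d, and 5.29 and 7.28 for 30d. The 30d libraries were above the other 6, and the second was the higher, unlike the 7 genes above. The log2FC of 30d was 0.87 ± 0.22 (SE) against 0d, with an adjusted p of 0.145 by edgeR's quasi-likelihood test. It was 0.86 ± 0.22 against 1d, with an adjusted p of 0.141 in that test, and 0.85 ± 0.22 against 3d, with an adjusted p of 0.0939. Without the first 30d library the log2FC against 0d was 1.08 and Kif23 was called.

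E2f8, a repressor of the E2F family, was at 1.61 and 1.39 CPM for 0d, 1.64 and 1.00 for 1d, 1.18 and 1.23 for 3d, and 3.17 and 2.47 for 30d. Its log2FC of 30d against 3d was 1.22 ± 0.31 (SE), with an adjusted p of 0.0880 by edgeR's quasi-likelihood test, and that against 1d was 1.09 ± 0.31, with an adjusted p of 0.195. Cenpa, the histone that Hjurp deposits, was at 1.46 and 1.34 CPM for 0d, 2.27 and 1.55 for 1d, 1.40 and 1.01 for 3d, and 2.46 and 2.57 for 30d. Its log2FC of 30d against 3d was 1.06 ± 0.30, with an adjusted p of 0.131 in the same test. None of these 3 genes passed the threshold in this test with all libraries, while DESeq2 called Kif23 and E2f8 at 30d against 3d.

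Other changes were named because their p was among the 3 smallest of a comparison. At 30d against 0d Mcm7, a helicase subunit, had a log2FC of 0.42 ± 0.12 (SE), and at 30d against 1d the mitotic kinesin Kif20a had 0.43 ± 0.13. At 1d against 0d they were Uhrf1 (0.96 ± 0.33), which maintains DNA methylation, the checkpoint gene Mad2l1 (-0.44 ± 0.16) and the kinesin gene Kif22 (0.47 ± 0.21). At 3d against 0d they were E2f3 (0.16 ± 0.08), Cdkn1b (0.09 ± 0.05) and the phosphatase gene Cdc25b (0.22 ± 0.12). At 3d against 1d they were Ccne1 (-0.25 ± 0.11), Cenpa (-0.67 ± 0.31) and Mad2l1 (0.34 ± 0.16). Their adjusted p by edgeR's quasi-likelihood test lay between 0.184 and 1.00. Leaving out 1 library moved several of these values by over 1.5 times. At 1d against 0d, Kif22 became 0.26 without the first 0d library and 0.73 without the second, and Mad2l1 -0.25 without the second and -0.66 without the first 1d library. At 3d against 1d, Cenpa became -0.37 without the first 1d library, and Ccne1 -0.15 and Mad2l1 0.15 without the second.

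The genes outside the cell cycle lists whose log2 CPM followed the mean of the 8 S phase and mitosis genes (Hjurp included) most closely over the 8 libraries were Arhgap30 (Pearson r = 0.96), 2810417H13Rik (0.95), Cd53, Csf2rb, Rgp1, Itgal, Nfe2 and Tnk2os (0.92), out of 14523 candidates. 2810417H13Rik is the older symbol of Pclaf, a partner of Pcna, and so a cell cycle gene itself. Cd53, Itgal, Csf2rb and Nfe2 are expressed in blood cells. Nfe2, a factor of red cells and platelets, was at 0.548 to 3.03 CPM. Closest to Ccnd1 were Fam173b, Sncb, Mgme1, Tmem263 and Cxcl14 (r = 0.95 to 0.94), and among those closest to Ccnd2 were Ptgr2, Pms1, Brf2 and Mgl2 (0.97 to 0.93). These values describe 8 libraries that also differ in cell content.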

How the data were processed

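RNA from mouse DRG was sequenced in 8 libraries. The authors removed adapters with cutadapt 2.10, mapped to mm10 with STAR 2.7.5a and counted read pairs on exons of UCSC genes with featureCounts 2.0.1, without using strand, counting a pair for every gene it overlapped and leaving out pairs with several positions. The deposited values are raw counts per gene, without normalization. Tools and versions are from the submitters' processing notes. All 8 columns were used.

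Counts were analysed in R 4.3.3 with edgeR 4.0.16 (filterByExpr, TMM, glmQLFit with robust estimation, quasi-likelihood F-test), in 1 fit of all libraries with time point as the sole factor. Benjamini-Hochberg adjustment was over 17328 genes, with a threshold of 0.05. CPM and RPKM are counts scaled by TMM, RPKM also by exonic length; the SE is the size of the log2FC divided by the square root of F. Correlations used log2 CPM with a prior count of 2. limma 3.58.1 and DESeq2 1.42.0 gave alternatives. The fit was tested on simulated counts of 3d against 0d over 17328 genes. It called 8% of 50 genes given a log2 change of 0.25, 54% of 50 given 0.5 and 84% of 50 given 1. At a change of 2 it called 88% of 50, and it called 14 of 17128 unchanged genes. These shares were not split by level. They therefore do not show how often such changes would be called in Mki67, Top2a, Cdk1, Aurkb, Ccnb1 and Bub1. Those genes were low, with SE of 0.39 to 0.67 between time points.

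The members, gene lists and tests were chosen with earlier results of these data known. Genes named are the 10 members, 20 fixed partners, the 3 other cell cycle genes with the smallest p in each comparison, and those most alike in pattern, of which some are not reported here. Pools are separate mice; replicates differed by more than counting noise at each time point (chi-square per degree of freedom 7.29 to 25.8). Same-numbered replicates did not deviate together (correlations -0.01 to 0.04 over genes), so numbers do not pair libraries.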

Additional observations from a re-analysis of the deposited data

How the results depend on the processing

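No result changed direction while being called. At 1d against 0d 0 members and 0 other genes were called under every setting, and at 3d against 0d and 3d against 1d 0 of the other genes. Members called at 3d against 0d (1) became 0 without robust estimation, with edgeR's newer quasi-likelihood method and at an adjusted p under 0.01, and 0 to 1 with a library left out. At 30d against 0d, where 0 members were called, 1 (Hjurp) was called without the filter and by DESeq2, and of the other genes 1 (Kif23) without the filter and 0 to 3 with a library left out. Those 3 were Ccnd3, Cdkn1a and Rrm2, without the second 30d library. At 30d against 1d, 1 member (Hjurp) was called without the filter, by DESeq2 and with the replicate block, and 0 to 1 with a library left out, and of the other genes 1 (Kif23) without the filter and 0 to 1 with a library left out. At 30d against 3d, the 1 member became 0 without robust estimation and at an adjusted p under 0.01, and 0 to 1 with a library left out, and of the other genes 2 (E2f8 and Kif23) were called without the filter, by DESeq2 and at an adjusted p under 0.10, and 0 to 1 with a library left out. Over time, 2 members (Ccnd1 and Hjurp) were called without the filter, by DESeq2, with the replicate block and at an adjusted p under 0.10, and 0 to 1 with a library left out, and of the other genes 2 without the filter, 1 by DESeq2 and 0 to 1 with a library left out. The number of all genes called moved with the setting too. At 3d against 0d it went from 38 to 20 without robust estimation and to 28 with the newer method. At 30d against 0d it went from 4 of 17328 to 177 of 20550 without the filter and 184 of 15816 by DESeq2. At 30d against 1d it went from 99 to 213, to 229 and, with the replicate block, to 159. At 30d against 3d it went from 162 to 358 without the filter. The cause of these changes was not tested. The block moved no other count of members or other genes, and since the numbers do not pair libraries it says nothing of the strength of an effect.

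Leaving out the first 0d and the first 30d library together was added after the data were seen. Members called were then 2 (Ccna2, lower, and Hjurp, higher) at 30d against 0d, against 1d and against 3d, 1 (Ccnd2) at 3d against 1d and 3 over time. Other genes called were 3 at 30d against 0d (Ccnf, Kif23 and Tfdp1), 5 at 30d against 1d, 8 at 30d against 3d (Kif23, E2f8 and Cenpa among them) and 3 over time. Each of 0d and 30d then rests on 1 library, which is assumed to vary like the other groups. In this fit the number of all tested genes called also rose, in every comparison and over time. The calls of members and other cell cycle genes in it are therefore not read as changes particular to the cell cycle. Low counts limit Ccnb1, Bub1, Aurkb and Cdk1, and 2 pools per time point limit all.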
